A study of Mus musculus with 6 samples.

Results

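The 36 genes described here encode the glucose transporter, enzymes, regulators and lactate carriers of glycolysis (23 genes) and the oxygen-sensing pathway with its best-known targets (13 genes). They form a list of gene names, set up with earlier results of these data known, out of 18194 genes that the arrays name. Their RNA was measured in melan-a cells, an immortal line of mouse melanocytes (pigment cells) from C57BL/6 embryos, on 6 one-colour oligonucleotide arrays. All cells were transduced with delta-BRAF-ER, an activated version of the growth-signalling kinase BRAF that stays off until tamoxifen is given. The 6 groups had 1 array each: BRAF activated with added ZEB2, SNAIL2, TWIST1 or ZEB1, BRAF activated alone (BRAF-on) and BRAF not activated (BRAF-off). The 4 added proteins are transcription factors of the embryo, and each factor array was set against BRAF-on, BRAF-on against BRAF-off. No array carried an added factor without BRAF activation, and none had tamoxifen without the construct, so effects of the drug and of BRAF cannot be told apart.

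Glycolysis splits glucose to pyruvate in the cytoplasm, and lactate dehydrogenase turns pyruvate to lactate. When oxygen is short, prolyl hydroxylases stop marking the HIF alpha proteins for destruction, and HIF then raises genes for glucose uptake, glycolysis, vessel growth and mitochondrial removal. In pigment cells the regulator MITF is known to raise HIF1A, and BRAF signalling does so in melanoma, so part of this program can run at normal oxygen.

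Values are signals on a linear scale, and a ratio is the log2 of 1 array's signal over another's, after signals under a floor of 63.7 were raised to that floor. With 1 array per group there is no replicate, so no spread is known, no test was possible and every ratio describes a pair of arrays. Genes were counted at 2-fold and at 1.5-fold, beside the share of all compared genes that passed the same size. All arrays were scaled to the same mean, so a ratio is relative to the other transcripts on the array. Whether fewer cells express a gene or each cell holds less of its RNA cannot be told apart. Of the 36 members, 33 had a probe set naming 1 gene. Gpi1, Eno1 and Bnip3l had none, and Gapdh was read from the control probe sets of the array. Of the 33, 29 lay at or above the floor on all 6 arrays. The lactate exporter gene Slc16a3, the carbonic anhydrase gene Car9 and the peptide hormone gene Adm were under it on all 6, with highest signals of 51.6, 46.0 and 52.9, and Ankrd37 reached it on 1.

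Between 10612 genes (BRAF-off) and 11270 genes (ZEB1) reached the floor per array. The 3' over 5' ratio of the Gapdh control probe sets lay between 0.792 (ZEB1) and 0.839 (SNAIL2), and that of beta-actin between 1.36 (TWIST1) and 1.54 (ZEB2). Control RNAs added before amplification had a median log2 ratio of 1.35 on the SNAIL2 array over BRAF-on, and between -0.18 and 0.50 on the other factor arrays. Of 10 pigment cell markers, all 10 reached the floor on 5 arrays and 2 did on the TWIST1 array. Of 5 keratinocyte markers 1 or 2 reached it on each array, and of 5 endothelial markers 0 to 3 did. Set against BRAF-on, the factors' own genes were not 2-fold higher on the arrays named after them. Zeb2 had a log2 ratio of 0.49, Snai2 -0.41, Twist1 -0.28 and Zeb1 -0.30. The factor names therefore stand for the arrays so labelled.

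The plot of log2 ratios gives every member in the 5 comparisons.

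**Figure D1:**
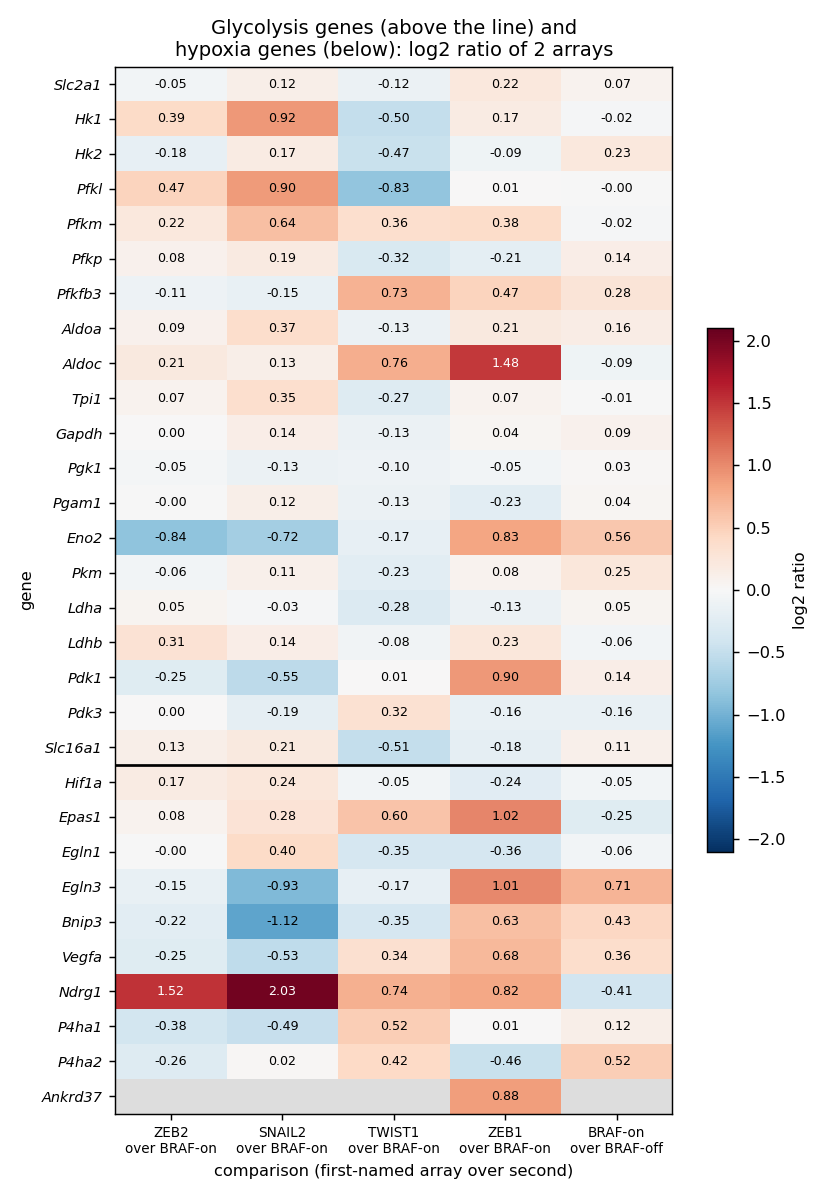
Log2 ratio of the first-named array over the second for the 30 members that reached the floor somewhere, glycolysis genes above the line and hypoxia genes below it. Red is higher and blue lower in the first-named array, grey cells had both arrays under the floor. Ndrg1 over BRAF-on stands at 1.52 with ZEB2 and 2.03 with SNAIL2, and Bnip3 at -1.12 with SNAIL2.

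The 3 brightest members, Gapdh, Aldoa and Tpi1, spanned at most 1.54-fold over the 6 arrays, while Pfkl spanned 3.30-fold, Eno2 3.19-fold, Aldoc 2.79-fold and Hk1 2.66-fold. Gapdh, whose enzyme oxidises glyceraldehyde phosphate, had signals of 24725 with ZEB2, 27214 with SNAIL2, 22627 with TWIST1 and 25446 with ZEB1, against 24690 in BRAF-on and 23120 in BRAF-off. Its highest signal was 1.20-fold its lowest. Aldoa, the main aldolase gene, which splits the sugar phosphate, stood at 17158 with ZEB2, 20836 with SNAIL2, 14786 with TWIST1 and 18713 with ZEB1, against 16164 in BRAF-on and 14480 in BRAF-off. Tpi1, whose isomerase turns the 2 products of aldolase into each other, stood at 15454 with ZEB2, 18732 with SNAIL2, 12202 with TWIST1 and 15400 with ZEB1, against 14675 in BRAF-on and 14759 in BRAF-off. All 3 were highest with SNAIL2. Pgk1, whose product makes the first ATP of the pathway, spanned 1.09-fold, and Slc2a1, the main glucose transporter gene of most growing cells, spanned 1.26-fold. The lactate dehydrogenase genes Ldha and Ldhb spanned 1.26-fold and 1.30-fold, Pgam1 1.27-fold and the pyruvate kinase gene Pkm 1.28-fold. Over the 20 glycolysis members on all arrays, the median span was 1.49-fold, against 2.03-fold for the 9 hypoxia members and 1.73-fold for 9938 genes at or above the floor on all arrays. The difference between these medians was not tested. In between, Aldoa spanned 1.44-fold, Pfkp 1.42-fold, Hk2 1.56-fold and the lactate carrier gene Slc16a1 1.64-fold. Pdk3, a second pyruvate dehydrogenase kinase gene, spanned 1.42-fold, with 2189 on the TWIST1 array as its highest signal and 1540 on the SNAIL2 array as its lowest.

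With BRAF activation no member was 2-fold apart, and the hypoxia members went both ways. In BRAF-on over BRAF-off, none of 29 members passed 2-fold either way, beside 1.04% of all 11201 genes higher and 0.384% lower. At 1.5-fold, 1 was higher and none lower, beside 4.01% and 2.39%. That gene was Egln3, a prolyl hydroxylase that is itself induced by HIF. It stood at 334 in BRAF-on, against 204 in BRAF-off, a log2 ratio of 0.71. It fell short of 1.5-fold with centring (0.51) and with the floor as a pseudocount (0.57).

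Short of 1.5-fold stood the neuronal enolase gene Eno2 (log2 ratio 0.56), the collagen prolyl hydroxylase gene P4ha2 (0.52) and Bnip3 (0.43), which encodes a mitophagy receptor. The vessel growth factor gene Vegfa stood at 0.36, and its dimmer second probe set gave 0.88, past 1.5-fold. On the lower side the hypoxia and differentiation gene Ndrg1 stood at -0.41 and Epas1, which encodes HIF2A, at -0.25. A dimmer second Epas1 probe set went the opposite way, at 0.39. Hif1a itself was within 0.06 of 0 on the log2 scale, at 7935 in BRAF-on against 8243 in BRAF-off. The medians were 0.06 for the 20 glycolysis members and 0.12 for the 9 hypoxia members, against 0.00 for all genes. With each array centred on its median probe set both medians changed sign, to -0.14 and -0.08, since centring shifts all ratios of this comparison by -0.20. The median of all genes was then -0.20, so both member medians stayed above it. With the second probe set, or the only one of a gene, the hypoxia median was 0.41 over 8 members, Egln3 not among them.

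The ZEB2 array differed from BRAF-on in few members, and 1 of 29 was at least 2-fold higher and none lower, beside 1.76% and 0.583% of all 11323 genes. That member was Ndrg1, which stood at 2066 with ZEB2, against 720 in BRAF-on, 2.87-fold higher. It ranked 33rd among all genes higher in that comparison. BRAF-off, at 957, lay above BRAF-on, and the ZEB2 array was 2.16-fold over it. The other 3 Ndrg1 probe sets above the floor on both arrays gave log2 ratios of 1.39 to 1.45.

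Eno2 was the 1 member at least 1.5-fold lower with ZEB2, at 93.2 against 167 in BRAF-on, beside 3.98% of all genes. That call was lost with a floor at the 60th percentile (-0.33) and as a pseudocount (-0.56). The 1 at least 1.5-fold higher was Ndrg1 again, beside 6.01%. Against BRAF-off, at 113, Eno2 had a log2 ratio of -0.28, short of 1.5-fold. Pigment cell markers summed to 120354 with ZEB2, against 67724 in BRAF-on, and their part in these ratios was not tested. Of the hexokinase genes Hk1 stood at 0.39 and Hk2 at -0.18. The liver-type phosphofructokinase gene Pfkl stood at 0.47, but its other 2 probe sets gave 0.07 and -0.08. The glycolysis median was 0.03 and the hypoxia median -0.15, against 0.00 for all genes. Over BRAF-off the hypoxia median was 0.11, so its sign depended on which array it was set against.

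On the SNAIL2 array Hk1, Pfkl, Pfkm and Ndrg1 stood 1.5-fold or more above BRAF-on, and Bnip3, Egln3 and Eno2 that far below it. At 1.5-fold, 4 of 29 members were higher and 3 lower, beside 17.3% and 15.7% of all 11417 genes. The members' shares are below that background. At 2-fold 1 was higher (Ndrg1) and 1 lower (Bnip3), beside 5.61% and 6.42%.

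Hk1, a hexokinase, which traps glucose in the cell as its phosphate, stood at 3719 with ZEB2, 5342 with SNAIL2, 2005 with TWIST1 and 3183 with ZEB1, against 2830 in BRAF-on and 2864 in BRAF-off. The SNAIL2 array was the highest, 1.89-fold over BRAF-on, and the TWIST1 array the lowest. A second Hk1 probe set gave a log2 ratio of 1.06 for SNAIL2 over BRAF-on, against 0.92 for the one used.

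Phosphofructokinase, the committed step, has 3 isoform genes. Pfkl stood at 1310 with ZEB2, 1761 with SNAIL2, 533 with TWIST1 and 956 with ZEB1, against 946 in BRAF-on and 948 in BRAF-off. The order of the arrays was that of Hk1 at both ends, with 3.30-fold between SNAIL2 and TWIST1. Its other 2 probe sets gave lower log2 ratios for SNAIL2 over BRAF-on, 0.38 and 0.79, against 0.90 for the one used. The muscle-type Pfkm stood at 2354 with ZEB2, 3146 with SNAIL2, 2591 with TWIST1 and 2634 with ZEB1, against 2025 in BRAF-on and 2054 in BRAF-off. It was 1.55-fold higher with SNAIL2 than in BRAF-on, and the platelet-type Pfkp had a log2 ratio of 0.19. Lower was Eno2, at 102 against 167 in BRAF-on, a log2 ratio of -0.72 that fell short of 1.5-fold with the floor at the 60th percentile (-0.33) or as a pseudocount (-0.48).

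**Figure D2:**
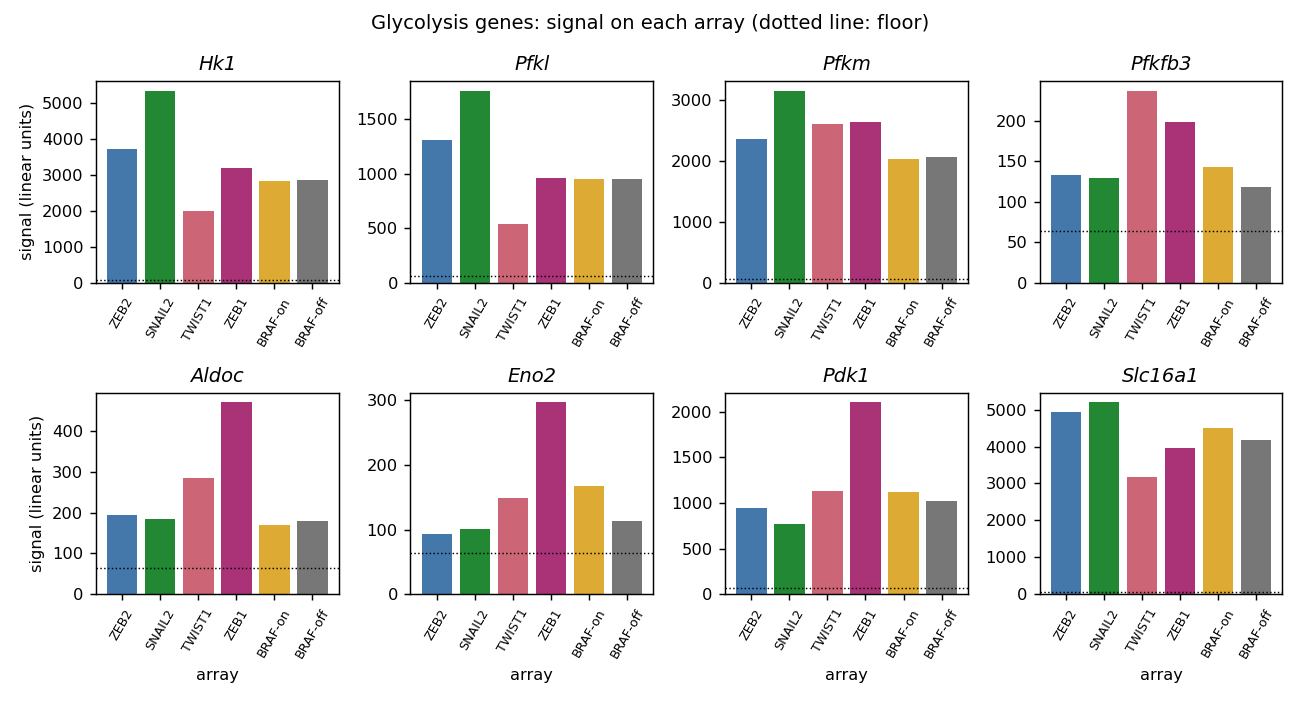
Signal in linear units on each array for 8 glycolysis members, with the 4 factor arrays left of BRAF-on and BRAF-off; the dotted line is the floor of 63.7. Hk1 and Pfkl are highest with SNAIL2 and lowest with TWIST1, while Aldoc, Eno2 and Pdk1 are highest with ZEB1.

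Of the hypoxia members, Ndrg1 was the furthest apart with SNAIL2. It stood at 2066 with ZEB2, 2950 with SNAIL2, 1206 with TWIST1 and 1272 with ZEB1, against 720 in BRAF-on and 957 in BRAF-off. By this probe set all 4 factor arrays were above both arrays without a factor, but by another one TWIST1, at 403, lay under BRAF-off, at 416. The SNAIL2 array was 4.10-fold over BRAF-on, rank 44 of all genes higher there, and 3.08-fold over BRAF-off. The other 3 probe sets above the floor on both arrays gave log2 ratios of 1.82 to 1.998, against 2.03 for the one used. A dimmer one, under the floor in BRAF-on, gave at least 1.38.

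Bnip3 stood at 795 with ZEB2, 428 with SNAIL2, 728 with TWIST1 and 1432 with ZEB1, against 926 in BRAF-on and 687 in BRAF-off. It was lowest with SNAIL2, 2.17-fold under BRAF-on and 1.61-fold under BRAF-off, and highest with ZEB1. Egln3 stood at 300.02 with ZEB2, 175 with SNAIL2, 296 with TWIST1 and 673 with ZEB1, against 334 in BRAF-on and 204 in BRAF-off. The extremes were again SNAIL2 and ZEB1, although SNAIL2 over BRAF-off came to a log2 ratio of only -0.23. A second, dimmer Egln3 probe set, with BRAF-on under the floor, gave 0.11 for SNAIL2 over BRAF-on, opposite to the -0.93 of the one used.

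Pdk1, whose kinase switches off pyruvate dehydrogenase, stood at 943 with ZEB2, 765 with SNAIL2, 1129 with TWIST1 and 2101 with ZEB1, against 1123 in BRAF-on and 1020 in BRAF-off. Here too SNAIL2 was the lowest and ZEB1 the highest. A dimmer probe set of Pdk1 shared the highest but not the lowest, with a log2 ratio of 0.01 for SNAIL2 over BRAF-on. Vegfa, the vessel growth factor gene, stood at 395 with ZEB2, 326 with SNAIL2, 595 with TWIST1 and 752 with ZEB1, against 471 in BRAF-on and 366 in BRAF-off, with the same arrays at the ends. P4ha1 was lowest with SNAIL2 as well, at 1985 against 2792 in BRAF-on. In contrast Hif1a (log2 ratio 0.24), Epas1 (0.28) and Egln1 (0.40), the main prolyl hydroxylase gene for HIF, leaned upward with SNAIL2. That direction was not shared by dimmer second probe sets of Epas1 (-0.40) and Egln1 (-0.05).

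As a whole the glycolysis members had a median of 0.13 with SNAIL2 over BRAF-on and the hypoxia members one of 0.02, against 0.06 for all genes. Of the 20 glycolysis members on all arrays, 11 (55%) had their highest signal of the 6 on the SNAIL2 array, against 34.6% of all genes. With quantile normalization that count was 13 and with centring 12. Many of these differences were small, such as the 1.20-fold span of Gapdh. The added control RNAs were higher on this array, and pigment cell markers summed to 147678, against 67724 in BRAF-on. Their part in these ratios was not tested.

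**Figure D3:**
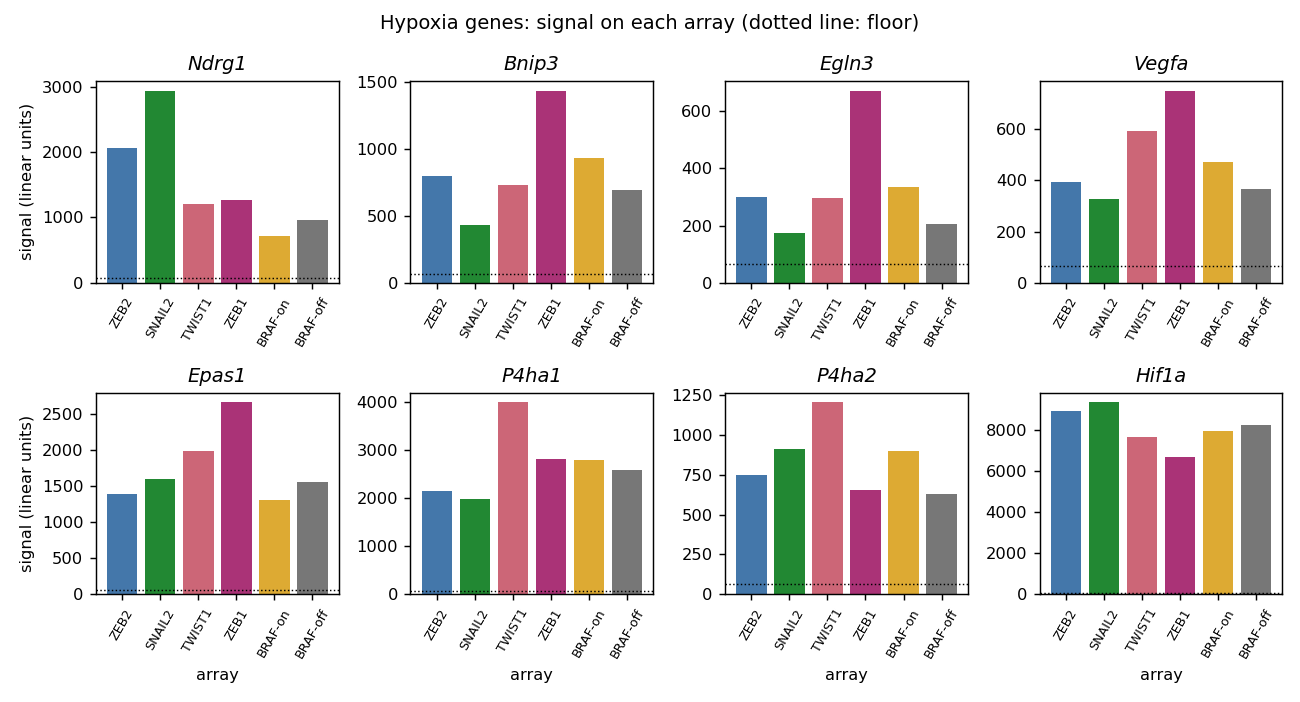
Signal in linear units on each array for 8 hypoxia members, with the 4 factor arrays left of BRAF-on and BRAF-off; the dotted line is the floor of 63.7. Bnip3, Egln3 and Vegfa are lowest with SNAIL2 and highest with ZEB1, whereas Ndrg1 is highest with SNAIL2.

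The promoters of Bnip3, Egln3 and Pdk1 are shown because these genes had their lowest signal with SNAIL2 and their highest with ZEB1, and that of Aldoc because it was furthest apart with ZEB1. Those extremes are by the probe set used. A dimmer probe set of Egln3 and of Pdk1 shared the highest but not the lowest. Vegfa had the same extremes, but its second probe set shared neither, and its 2 windows, with 2 and 0 matches, are not printed. The windows run from 250 bases before to 50 after a transcript start, from RefSeq, build GRCm38.p6, 5′ to 3′ on the gene's strand. They are Bnip3 at chr7:138909457-138909756 (minus strand), Egln3 at chr12:54203825-54204124 (minus), Pdk1 at chr2:71872974-71873273 (plus) and Aldoc at chr11:78322823-78323122 (plus). Capitals mark the core letters of the hypoxia response element, ACGTG or GCGTG, read on either strand, so that CACGT and CACGC count as well.
Bnip3: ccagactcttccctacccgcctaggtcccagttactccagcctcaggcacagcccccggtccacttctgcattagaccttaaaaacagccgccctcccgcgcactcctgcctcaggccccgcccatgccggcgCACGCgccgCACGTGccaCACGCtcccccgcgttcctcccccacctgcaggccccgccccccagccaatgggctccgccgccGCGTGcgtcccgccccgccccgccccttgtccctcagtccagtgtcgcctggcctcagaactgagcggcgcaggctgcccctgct
Egln3: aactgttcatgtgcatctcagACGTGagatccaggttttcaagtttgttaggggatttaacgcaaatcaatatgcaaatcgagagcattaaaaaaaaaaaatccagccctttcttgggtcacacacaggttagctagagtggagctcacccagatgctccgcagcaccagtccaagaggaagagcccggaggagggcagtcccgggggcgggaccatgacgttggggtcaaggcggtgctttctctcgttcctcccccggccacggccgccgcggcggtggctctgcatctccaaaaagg
Pdk1: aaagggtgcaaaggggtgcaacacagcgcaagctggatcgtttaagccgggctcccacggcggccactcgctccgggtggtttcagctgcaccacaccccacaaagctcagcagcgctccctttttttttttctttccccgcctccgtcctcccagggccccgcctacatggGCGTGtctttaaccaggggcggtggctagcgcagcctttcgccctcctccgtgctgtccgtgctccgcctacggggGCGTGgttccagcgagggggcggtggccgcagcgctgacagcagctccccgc
Aldoc: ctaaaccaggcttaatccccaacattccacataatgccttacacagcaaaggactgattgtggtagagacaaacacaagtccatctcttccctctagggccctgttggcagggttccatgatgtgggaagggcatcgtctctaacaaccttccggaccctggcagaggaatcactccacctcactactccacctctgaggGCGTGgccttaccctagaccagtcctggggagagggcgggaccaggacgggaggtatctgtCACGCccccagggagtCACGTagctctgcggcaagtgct

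Bnip3 held 5 matches in 4 stretches, since 1 stretch reads as a core on both strands. Aldoc held 3, Pdk1 2 and Egln3 1. Pdk1 and Aldoc each have a second RefSeq window, with 0 and 1 matches. RefSeq windows were found for 33 of the 36 members, all but Bnip3l, Epas1 and Ndrg1. At least 1 match lay in a window of 30 of these 33 genes (90.9%), against 46.7% of 27025 genes with a window and 69.9% of the 8154 of these that were at or above the floor on all arrays. Some genes have several windows. Counted by window, 80.9% of the 47 member windows held a match, against 43.8% and 63.6%. Members that stayed level held matches too, such as Ldha with 7 in 1 window and Pgk1 with 2, and the window of Eno2 had none. The letters contain a CG pair. Counted in each gene's window with the most such pairs, the median was 24 for members, against 8 for all genes and 23 for those on all arrays. A match is a description of letters, not a binding site.

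On the TWIST1 array Pfkl stood 1.5-fold or more below BRAF-on, and Aldoc, Ndrg1, Pfkfb3 and Epas1 that far above it. Of 29 members none was 2-fold apart either way, beside 2.03% of all 11335 genes higher and 2.02% lower. At 1.5-fold, 4 were higher and 1 lower, beside 6.38% and 6.28%. The lower one was Pfkl, 1.78-fold under BRAF-on, with both its other probe sets lower too, at -0.76 and -0.67. Short of that size were Slc16a1, a lactate and pyruvate carrier gene, at -0.51, Hk1 at -0.50 and Hk2, the inducible hexokinase, at -0.47. The second Hk1 probe set gave -0.03.

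Of the 20 glycolysis members, 15 lay below 0, beside 5625 of all 11335 genes. The glycolysis median was -0.13, against 0.00 for all genes. With centring, which shifts this comparison by 0.19, the median turned to 0.07, against 0.19 for all genes. Its sign therefore rests on the scaling, while it lay below the median of all genes on both scales. On the deposited scale 10 of the 20 (50%) had their lowest signal of the 6 on the TWIST1 array, against 19.9% of all genes. With centring that count was 5 (25%), against 9.84% of all genes. Ldha stood at 12574 with TWIST1, against 15287 in BRAF-on, and Slc16a1 at 3174 against 4507.

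The 4 members at least 1.5-fold higher with TWIST1 were Aldoc, Pfkfb3, Ndrg1 and Epas1. Pfkfb3, whose enzyme makes the activator of phosphofructokinase, stood at 133 with ZEB2, 129 with SNAIL2, 238 with TWIST1 and 198 with ZEB1, against 144 in BRAF-on and 119 in BRAF-off. It was highest with TWIST1, where Pfkl was lowest. Aldoc, a brain-type aldolase gene, stood at 285 against 169 in BRAF-on. The Ndrg1 ratio of 0.74 was not shared in size by the 3 other probe sets above the floor on both arrays, which gave 0.22 to 0.47. A dimmer Ndrg1 probe set, under the floor in BRAF-on, gave at least 1.07. Epas1 lay just past 1.5-fold, at a log2 ratio of 0.60, and fell short with quantile normalization (0.569), the floor as a pseudocount (0.574) and its second probe set (0.38). Pfkfb3 fell short with the pseudocount (0.54) and with the median of its probe sets (0.577). The hypoxia median with TWIST1 over BRAF-on was 0.34 over 9 members, against 0.00 for all genes. It was the value of Vegfa, whose second probe set gave -0.47. Over BRAF-off it was 0.35 with TWIST1 and 0.41 with ZEB1 over the same 9 members, against 0.01 and 0.08 for all genes. With the second probe set, or the only one of a gene, the TWIST1 median over BRAF-on was 0.19 over 8 members.

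P4ha1 and P4ha2 encode catalytic subunits of the hydroxylase that stabilises collagen. P4ha1 stood at 2144 with ZEB2, 1985 with SNAIL2, 3991 with TWIST1 and 2818 with ZEB1, against 2792 in BRAF-on and 2575 in BRAF-off. P4ha2 stood at 750 with ZEB2, 911 with SNAIL2, 1206 with TWIST1 and 653 with ZEB1, against 900 in BRAF-on and 627 in BRAF-off. Both were highest with TWIST1, at log2 ratios of 0.52 and 0.42 over BRAF-on, short of 1.5-fold. A second P4ha1 probe set gave 0.62, while P4ha2 had no other one to set beside it. The summed signal of 8 fibroblast markers was 16533 on this array, against 6791 in BRAF-on, with 7 of 8 at the floor against 5. That of 10 pigment cell markers was 2408, against 67724. The part of these changes in the P4ha1 and P4ha2 ratios was not tested.

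On the ZEB1 array Aldoc, Epas1 and Egln3 stood 2-fold or more above BRAF-on. Of 30 members, 3 were at least 2-fold higher and none was that much lower, beside 4.49% and 3.93% of all 11615 genes. Epas1 and Egln3 lay just past 2-fold, and with centring 1 member was left, as with the floor as a pseudocount or at the 75th percentile. At 1.5-fold 9 were higher and none lower, beside 14.8% and 10.8%. Of the 9, 3 were glycolysis genes (Aldoc, Eno2 and Pdk1) and 6 hypoxia genes (Epas1, Egln3, Bnip3, Vegfa, Ndrg1 and Ankrd37). Ankrd37, an HIF target, stood at 28.2 with ZEB2, 29.2 with SNAIL2, 43.0 with TWIST1 and 117 with ZEB1, against 52.3 in BRAF-on and 27.3 in BRAF-off. All but ZEB1 lay under the floor, so ZEB1 was at least 1.84-fold over BRAF-on. It was compared only because it reached the floor here.

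Aldoc stood at 195 with ZEB2, 184 with SNAIL2, 285 with TWIST1 and 470 with ZEB1, against 169 in BRAF-on and 179 in BRAF-off. It was 2.79-fold over BRAF-on, the furthest of the members in this comparison. Eno2 stood at 93.2 with ZEB2, 102 with SNAIL2, 148 with TWIST1 and 297 with ZEB1, against 167 in BRAF-on and 113 in BRAF-off. Both genes are dim and each rests on 1 probe set above the floor. Pdk1 was 1.87-fold over BRAF-on, and its other 2 measured probe sets gave log2 ratios of 0.78 and 1.18, against 0.90 for the one used.

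Epas1 stood at 1380 with ZEB2, 1588 with SNAIL2, 1977 with TWIST1 and 2656 with ZEB1, against 1307 in BRAF-on and 1551 in BRAF-off. It was 2.03-fold over BRAF-on, and a dimmer second probe set gave a log2 ratio of 0.37 against 1.02. Hif1a went the other way and had its lowest signal with ZEB1, at 6710 against 7935 in BRAF-on. A second Hif1a probe set gave a log2 ratio of -0.59, against -0.24 for the one used. Egln1 was also lowest with ZEB1, at 959 against 1228, while Egln3 was 2.02-fold higher, and its second probe set, under the floor in BRAF-on, gave 0.98.

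Vegfa was 1.60-fold over BRAF-on by the probe set used, with a log2 ratio of 0.68, and a second one gave -0.13. Bnip3 was 1.55-fold over BRAF-on and 2.08-fold over BRAF-off. The 3 probe sets that name Bnip3l, a second mitophagy receptor gene, together with a pseudogene were all higher with ZEB1, with log2 ratios of 0.61 to 0.77, and these cannot be assigned to Bnip3l alone.

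The hypoxia median with ZEB1 over BRAF-on was 0.63 over the 9 members on all arrays, against 0.07 for all genes and 0.07 for the 20 glycolysis members. With the second probe set, or the only one of a gene, the hypoxia median was 0.12 with Ankrd37 included. No member was then 2-fold higher. Over the 9 without Ankrd37 the middle value was that of Vegfa, -0.13, below 0. Second probe sets of Egln3 (0.98), Ndrg1 (0.62) and Epas1 (0.37) lay above 0. Those of P4ha1 (-0.57), Egln1 (-0.47), Hif1a (-0.59) and Vegfa lay below it. By the probe sets used, the members below 0 were P4ha2 (-0.46), Egln1 and Hif1a. Of the 9, 4 (44.4%) had their highest signal with ZEB1, against 27.6% of all genes, and 4 their lowest with SNAIL2, against 26.8%. These counts were the same with quantile normalization and with centring. With so few genes and 1 array per group, these shares describe the arrays. The summed signal of 7 macrophage and leukocyte markers was 1201 with ZEB1, against 594 in BRAF-on, with 3 of 7 at the floor on both. That of the 10 pigment cell markers was 26874, against 67724. Their part in these ratios was not tested.

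**Figure D4:**
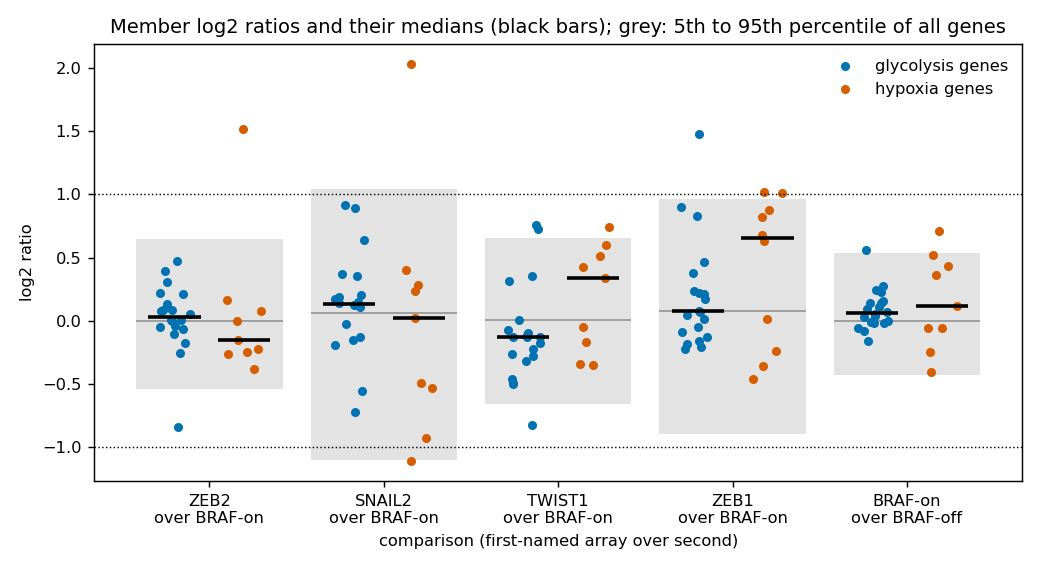
Log2 ratios of the glycolysis members (blue) and hypoxia members (orange) in each comparison, with black bars at their medians. Grey boxes span the 5th to 95th percentile of all genes with a line at their median, and dotted lines mark 2-fold. The hypoxia medians with ZEB1 (0.65 with Ankrd37 included) and TWIST1 (0.34) lie furthest above the grey lines. The glycolysis medians stay between -0.13 and 0.13.

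The factor arrays were also set against BRAF-off, which shares each factor array with the comparison above. With ZEB2, 1 of 29 members was at least 2-fold higher (Ndrg1) and none lower, beside 1.02% and 0.325% of all 11089 genes. At 1.5-fold it was again Ndrg1 alone, beside 4.83% higher and 1.99% lower. With SNAIL2, Ndrg1 was the 1 member 2-fold higher and none was 2-fold lower, beside 4% and 5.31% of all 11150 genes. At 1.5-fold Hk1 (1.87-fold), Pfkl (1.86-fold) and Pfkm (1.53-fold) were higher too and Bnip3 lower, beside 16.2% and 13.7%.

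With TWIST1 over BRAF-off, Pfkfb3 was the 1 member at least 2-fold higher, at 2.002-fold, and none was lower, beside 3.11% and 2.6% of all 11133 genes. At 1.5-fold 5 were higher (P4ha2 at 1.92-fold, Vegfa, Aldoc, P4ha1 and Pfkfb3) and Pfkl lower, beside 8.48% and 7.22%. With ZEB1, 6 of 30 were at least 2-fold higher and none lower, beside 7.06% and 5.2% of all 11509 genes. They were Egln3 (3.29-fold), Aldoc (2.63-fold), Eno2 (2.62-fold), Bnip3 (2.08-fold), Pdk1 (2.06-fold) and Vegfa (2.05-fold). At 1.5-fold Epas1, Pfkfb3 and Ankrd37 joined them, 9 higher and none lower, beside 17.8% and 12.9%. Ndrg1 was not among them, at a log2 ratio of 0.41.

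Other genes of the same pathways, listed by function, gave the following. Of 40 further genes of glycolysis, glycogen, pyruvate and the pentose phosphate path, 35 had a probe set, and 24 to 26 were compared each time. With SNAIL2 over BRAF-on 1 was at least 2-fold higher, the pyruvate carboxylase gene Pcx at 1265 against 393, with 3 other probe sets in the same direction. And 1 was that much lower, the mitochondrial pyruvate carrier gene Mpc1, at 1424 against 2891. These are 1 and 1 of 26 genes, beside 5.61% and 6.42% of all genes. With ZEB1 the glucose transporter gene Slc2a3 was 2.16-fold higher, although its other probe set went the opposite way. None was 2-fold apart with BRAF activation, ZEB2 or TWIST1.

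Of 42 further hypoxia pathway genes, 40 had a probe set and 35 to 36 were compared. With ZEB1 over BRAF-on, 5 were at least 2-fold higher and 1 lower, beside 4.49% and 3.93% of all genes, and the median was 0.26, against 0.07 for all genes. The higher ones were Stc1, a secreted glycoprotein gene (264 against a BRAF-on signal under the floor, at least 4.15-fold), the mTORC1 inhibitor gene Ddit4 (996 against 341), Angptl4 (232 against 98.1), Ccng2 (2478 against 1089) and Narf (682 against 335). The lower one was the transferrin receptor gene Tfrc, at 1659 against 4651. Stc1 was compared only because it reached the floor with ZEB1, and it is counted in the 5 and in the median.

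With SNAIL2 over BRAF-on 1 of these genes was higher, the transcription repressor gene Bhlhe40 at 3104 against 1412. The 2 lower ones were the mitochondrial genes Higd1a, at 2037 against 5042, and Fam162a, at 1512 against 3670. These are 1 and 2 of 35, beside the same 5.61% and 6.42%. TWIST1 had Lox, a collagen cross-linking enzyme gene, at 1899 against 635 in BRAF-on. BRAF activation had Stc2 at 145 against 71.6 in BRAF-off, while its other probe set went the opposite way. Of 7 Myc family and partner genes, Myc, a known driver of glycolysis genes, was 2.19-fold lower with TWIST1 than in BRAF-on, and Max 2.03-fold lower with TWIST1 and 2.08-fold lower with ZEB1. Of all genes, 2.02% were that much lower with TWIST1 and 3.93% with ZEB1. None of the 6 compared was 2-fold apart with BRAF activation, ZEB2 or SNAIL2.

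Probe sets of the same member mostly gave the same direction where ratios were large. For the member ratios past 1.5-fold with another probe set above the floor on both arrays, 21 of 22 other probe sets had the sign of the one used. The exception was Vegfa with ZEB1. These 22 came from 11 of the 24 ratios past 1.5-fold and from 6 members. Ndrg1 gave 3 of them with each factor, all over the same BRAF-on array, so the count rests largely on that gene. Egln3 with SNAIL2 was not counted, since its second probe set lay under the floor in BRAF-on. That set gave 0.11, against -0.93 for the one used. Over ratios of any size, 121 of 144 other probe sets had the sign of the one used.

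**Figure D5:**
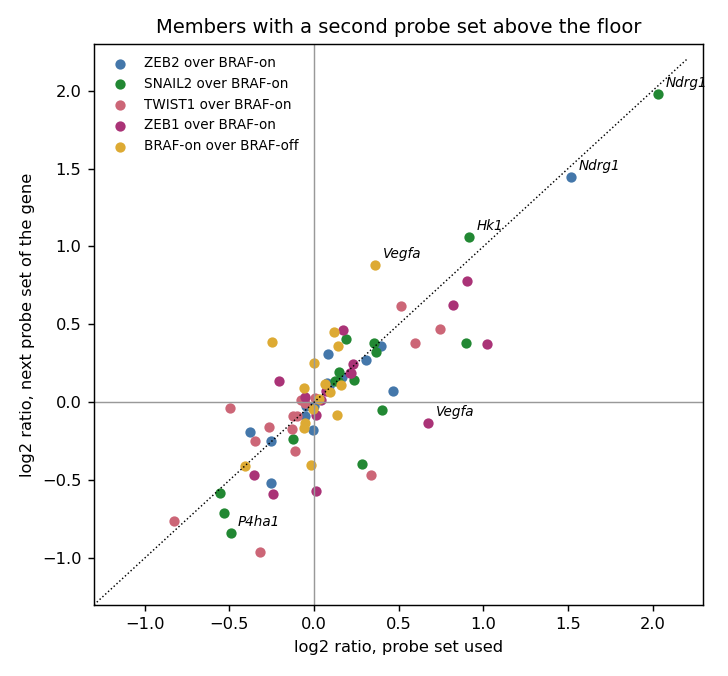
Log2 ratio from the probe set used (x axis) against that from the gene's next probe set (y axis), for members whose 2 probe sets lay above the floor, with 1 colour per comparison. The dotted line marks equality. Ndrg1 with SNAIL2 lies at 2.03 and 1.98, near the line, and Vegfa with ZEB1 at 0.68 and -0.13.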

How the data were processed

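RNA of 6 melan-a samples was extracted, amplified by a 3' expression kit and read on 1 Affymetrix array each, per the labels' protocols. The authors deposited linear intensity values, and the submitters' processing notes name MAS5 and Affymetrix Expression Console 1.1. Without the top and bottom 2% of values every array averaged about 500.003, so arrays came scaled alike and were not normalized again.

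Of 45101 probe sets, 34958 named 1 gene by the platform annotation, 932 several and 9211 none. Symbols were updated through Entrez numbers with a RefSeq table (GRCm38.p6). Of several probe sets for a gene, the brightest by mean log2 was used, control probe sets of Gapdh and other genes included. The floor was the median of all non-control values, and a gene was compared where at least 1 of 2 arrays reached it. All 36 members are named. Values on every array are given for those at least 1.5-fold apart in a comparison and for the 3 brightest, the others by range or ratio. Other pathway genes are named where at least 2-fold apart. Members and lists were chosen with earlier results of these data known. No test was run. The ratio computation was tested on simulated data. Alternatives were 2 normalizations, 4 treatments of low values, 3 choices of probe set, other sizes and BRAF-off in place of BRAF-on. Computation used Python 3.11.15, numpy 2.4.6, pandas 2.3.3 and matplotlib 3.10.9.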

Additional observations from a re-analysis of the deposited data

How the results depend on the processing

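No paired analysis was possible because each group has 1 array and the labels give no replicate numbers. The number of arrays limits the precision, and dim genes such as Eno2, Aldoc and Egln3 are the least certain. A median was taken as moved at a change of 0.1 or more (log2), and 84 of 98 alternative medians stayed within that. Of 24 member ratios past 1.5-fold, 174 of 196 alternative values on the same pair of arrays stayed past it in the same direction, 20 fell short and 2 reversed. The reversed ones, both with the second probe set, were Egln3 with SNAIL2 (0.11) and Vegfa with ZEB1 (-0.13). Many alternative values could not differ from the main one, so these shares do not measure robustness. Changing the floor leaves most ratios of bright genes as they are. Genes with 1 probe set keep it when the second or the median is taken. Ratios that could not be computed under an alternative were not counted.

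With centring on the median, the BRAF-on over BRAF-off medians were -0.14 (glycolysis) and -0.0802 (hypoxia), and the TWIST1 medians 0.0655 and 0.53. Centring shifted the median of all genes by -0.20 and 0.19 in these 2 comparisons and by less than 0.1 in the others. It left 1 member 2-fold higher with ZEB1 in place of 3, and 5 glycolysis members with their lowest signal on the TWIST1 array in place of 10. Setting the counts of highest and lowest signals beside other scalings was chosen after seeing the data. With the floor at the 75th percentile the hypoxia median was -0.0548 for BRAF-on over BRAF-off, -0.00364 with ZEB2, 0.24 with SNAIL2 and 0.50 with ZEB1. No member was then 2-fold lower with SNAIL2 (0), and 1 was 2-fold higher with ZEB1, as with the floor as a pseudocount (1). With the second probe set, the hypoxia median was 0.41 for BRAF-on over BRAF-off, 0.19 with TWIST1 and 0.12 with ZEB1, Ankrd37 included. Over the 9 without Ankrd37 the middle value with ZEB1 was -0.13. Members 2-fold higher were then 2 with SNAIL2 and 0 with ZEB1. The hypoxia median with TWIST1 was 0.17 with the median of all probe sets and 0.22 with probe sets of 1 transcript. With BRAF-off in place of BRAF-on, the hypoxia median with ZEB2 was 0.11. At 1.5-fold the counts of higher members were 1 (BRAF-on), 4 (SNAIL2), 4 (TWIST1) and 9 (ZEB1), and those of lower ones 1 (ZEB2), 3 (SNAIL2) and 1 (TWIST1). At 3-fold none (0) was higher with ZEB2 or ZEB1 and none (0) lower with SNAIL2. Except for these alternatives' own construction, the causes were not tested.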
